A study of Mus musculus with 10 samples.

Results

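Ribosome footprints of wild-type (WT) mouse embryonic stem cells were described from 2 libraries, WT_1 and WT_2, which are all the WT libraries of a series of 10. They were chosen by genotype, as the samples labelled wild type in the table of ribosome counts. The other 8 libraries, of cells lacking Dgcr8, Drosha, Dicer or Ago1 and Ago2, were not used. Both WT libraries came from E14, a cell line of the 129/Ola background derived from the blastocyst, the early embryo before implantation. The cells grew on gelatine in DMEM with 15% serum and LIF at 100 U/mL, a cytokine that holds stem cells undifferentiated. Cycloheximide, which stops elongating ribosomes on the mRNA, was given at 0.1 mg/mL during the last 2 min before harvest. The labels name no other treatment, no passage and no clone, and do not say whether the 2 libraries came from separate cultures, so the spread between them may be technical.

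Ribosome profiling digests RNA that no ribosome covers and sequences the short fragments that remain, called footprints. The number of footprints on a gene depends on how much of its mRNA there is, how densely ribosomes load it and how long its coding sequence is. Embryonic stem cells are held in a pluripotent state by transcription factors such as Oct4 (Pou5f1), Nanog and Sox2, divide fast, take up much glucose and secrete laminins that form a basement membrane. No mRNA libraries were analysed here, so mRNA amount and ribosome loading cannot be told apart, and neither can fewer cells of a type and less RNA per cell.

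The counts summed to 11082243 footprints in WT_1 and 23731070 in WT_2, so WT_2 was 2.14 times deeper. The same 11011 genes were listed in both, 11009 of them protein-coding, with 0 genes of the mitochondrial genome. The median gene had 324 footprints in WT_1 and 710 in WT_2, which is 29.2 CPM (counts scaled to a library total of 1000000) in WT_1 and 29.9 CPM in WT_2. Few of the listed genes were at 0, namely 22 in WT_1, 39 in WT_2 and 9 in both. How the listed genes were chosen is not given, so this is no measure of coverage. For the same reason a gene missing from the table cannot be read as 0. A count of 0 allows up to 3 counts, or 0.271 CPM in WT_1 and 0.126 CPM in WT_2. This floor and the intervals below cover counting error alone, since PCR copies are not separate molecules. At the upper end, 120 genes in WT_1 and 117 in WT_2 reached 1000 CPM.

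Footprints of the WT cells were spread over many genes, with no single gene above 1% of the footprints. In WT_1 the 29 genes with the most footprints held 10% of the library, and in WT_2 it took 33 genes. To reach 50% took 689 genes in WT_1 (6.26% of those listed) and 739 in WT_2 (6.71%). To reach 90% took 4530 genes in WT_1 and 4585 in WT_2. The first 100 genes held 20.3% of the footprints in WT_1 and 19.4% in WT_2. The plot of cumulative share shows WT_1 slightly above WT_2 along most of its course.

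**Figure D1:**
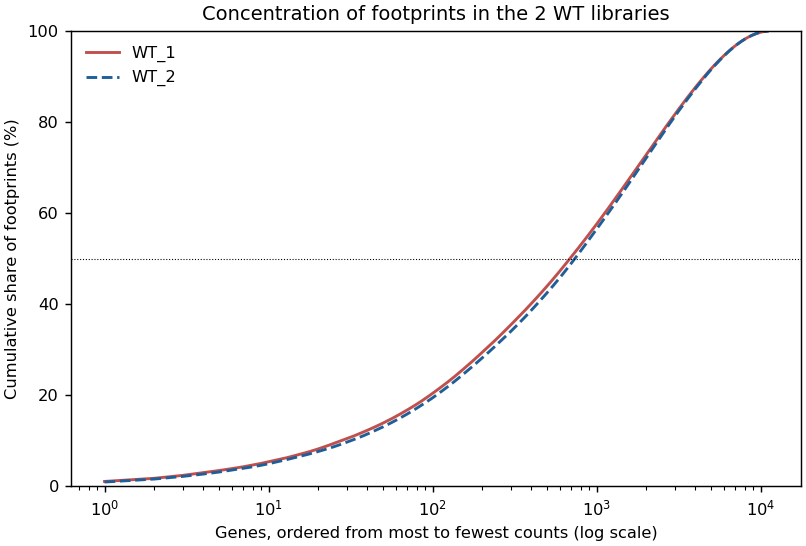
Cumulative share of footprints (vertical axis, percent) against the number of genes, ordered from most to fewest counts within each library (horizontal axis, log scale); the solid line is WT_1, the dashed line WT_2 and the dotted line marks 50%. The lines reach 50% at 689 genes in WT_1 and 739 genes in WT_2.

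The 5 genes with the most footprints code for 2 matrix proteins, a glucose transporter and 2 chaperones. Fn1, which codes for fibronectin, a glue of the extracellular matrix (chromosome 1, 71585520 to 71653200, GRCm38), ranked first in both libraries with 9646 CPM in WT_1 and 8335 CPM in WT_2, which is 0.965% of all footprints in WT_1 and 0.834% in WT_2. Slc2a3, the high-affinity glucose transporter GLUT3 (chromosome 6, 122727809 to 122801640), had 6830 CPM in WT_1 and 5134 CPM in WT_2. Hsp90ab1, a constitutive cytosolic chaperone, had 6015 CPM in WT_1 and 6508 CPM in WT_2. Its counterpart in the endoplasmic reticulum (ER), Hsp90b1, had 6495 CPM in WT_1 and 4513 CPM in WT_2. Lamc1, the gamma chain of laminin, had 4698 CPM in WT_1 and 5902 CPM in WT_2. These 5 genes filled the first 5 places in both libraries, and only Fn1 held the same place in each.

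Secreted proteins made up 6 more of the 20 genes with the most footprints. The laminin chains Lama1 (3606 CPM in WT_1, 4380 CPM in WT_2) and Lamb1 (2560 CPM in WT_1, 2835 CPM in WT_2) complete the trimer with Lamc1. Hspg2 codes for the basement membrane proteoglycan perlecan and had 3583 CPM in WT_1 and 3349 CPM in WT_2, while Nid2, a linker of basement membranes, had 2794 CPM in WT_1 and 2396 CPM in WT_2. Spp1, the secreted phosphoprotein osteopontin, had 3055 CPM in WT_1 and 2046 CPM in WT_2. Igfbp2, a secreted binder of insulin-like growth factors, had 2569 CPM in WT_1 and 2787 CPM in WT_2.

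The ER chaperones Hspa5, Canx and Calr were also among the 20. Hspa5 (BiP) had 3907 CPM in WT_1 and 2822 CPM in WT_2. The lectin chaperones Canx (3024 CPM in WT_1, 2284 CPM in WT_2) and Calr (2981 CPM in WT_1, 2160 CPM in WT_2) were likewise higher in WT_1. Slc2a1, the glucose transporter GLUT1, had 4253 CPM in WT_1 and 3346 CPM in WT_2, and Atp5b, the catalytic subunit of ATP synthase, 3858 CPM in WT_1 and 3609 CPM in WT_2. The other 4 of the 20 were Ncl, a nucleolar protein (3087 CPM in WT_1, 3396 CPM in WT_2), Trim28, a corepressor that silences transposons (2819 CPM in WT_1, 3250 CPM in WT_2), Actb, cytoplasmic actin (2500 CPM in WT_1, 3419 CPM in WT_2), and Ctnnb1, beta-catenin (2575 CPM in WT_1, 2091 CPM in WT_2).

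The order of genes by footprints was shared between the libraries in the main. Of the first 10 genes by counts 8 were common to WT_1 and WT_2, of the first 20 it was 15, of the first 100 it was 81 and of the first 1000 it was 904. Among the 20 named genes, Actb differed most in place, being 22nd in WT_1 and 8th in WT_2, and Spp1 next, being 12th in WT_1 and 25th in WT_2. A rank by counts favours long coding sequences a little. Across genes, Spearman's rho between CPM and coding length was 0.104 in WT_1 and 0.113 in WT_2, a description over genes of shared libraries.

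Footprints per length gave another order and brought short coding sequences forward. Density was expressed as TPM, the counts per kilobase of the longest coding sequence scaled so that each library sums to 1000000, and the median gene had 26.4 TPM in WT_1 and 27.3 TPM in WT_2. Slc2a3 was densest, at 6068 TPM in WT_1 and 4585 TPM in WT_2 (mean 5326 ± 1049 TPM, SD, n = 2). Dppa5a, an RNA-binding protein of pluripotent cells with a coding sequence of 354 bases, had 3932 TPM in WT_1 and 4197 TPM in WT_2, although it ranked 111th by counts in WT_1 and 91st in WT_2. Igfbp2 had 3689 TPM in WT_1 and 4022 TPM in WT_2. Hsp90ab1 had 3638 TPM in WT_1 and 3957 TPM in WT_2, and Spp1 4535 TPM in WT_1 and 3053 TPM in WT_2. Fn1, with a coding sequence of 7431 bases, came to 1705 TPM in WT_1 and 1481 TPM in WT_2.

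Histone genes were prominent on this scale. The variant histone H2afx, which marks DNA breaks once phosphorylated, had 2959 TPM in WT_1 and 4255 TPM in WT_2. The linker histones Hist1h1a (3177 TPM in WT_1, 3152 TPM in WT_2), Hist1h1d (3077 TPM in WT_1, 2953 TPM in WT_2) and Hist1h1c (2880 TPM in WT_1, 3106 TPM in WT_2) were also among the 15 densest genes. These differed less between the libraries than H2afx did. The other members of the 15 were Actb, Slc2a1, Apoe, Atp5b, Chchd10 and Hsp90b1. Apoe, a lipid carrier, had 3660 TPM in WT_1 and 2540 TPM in WT_2, and Chchd10, a small mitochondrial protein, had 2925 TPM in WT_1 and 3119 TPM in WT_2. Of the first 10 genes by TPM 6 were common to both libraries, and of the first 100 it was 86.

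The start codons of these 15 genes are shown because the bases around a start codon are known to affect how well a scanning ribosome recognises it. Each sequence runs 5′ to 3′ from 9 bases before the start codon to 3 bases after it, with the start codon in capitals, read from the GENCODE M21 transcripts of GRCm38.
Slc2a3: gttgggaccATGggg
Dppa5a: cttggcaggATGatg
Igfbp2: caagccaacATGctg
Hsp90ab1: cccgtcaagATGcct
Spp1: actacgaccATGaga
H2afx: tcgtacactATGtcc
Actb: cagttcgccATGgat
Slc2a1: agcgcggccATGgat
Hist1h1a: tcagcaaccATGtcg
Apoe: attgcgaagATGaag
Atp5b: gattccgccATGttg
Chchd10: accgcagtcATGcct
Hist1h1d: gcttagaacATGtcc
Hsp90b1: ccacgcaccATGagg
Hist1h1c: agactcatcATGtct
All 15 have A or G at position -3, counted back from the A of the start codon, the base known to matter most in this context. So did 86.7% of the 10651 genes for which these bases could be read. Among 10 bins of genes from least to most dense by mean TPM, the share with A or G at -3 was 85.2%, 81.4%, 84.9%, 83.3%, 84.1%, 86.6%, 87.8%, 90.6%, 89.5% and 93.2%. The share with G at position 4, directly after the start codon, lay between 49.1% and 57.5% and did not follow the bins in order. Coding length moved with the bins too, from a median of 2109 bases in the least dense bin to 909 bases in the densest. The densest bin, 1101 genes above 203 TPM, held 51.2% of the footprints in WT_1 and 49.9% in WT_2. Across genes Spearman's rho between TPM and coding length was -0.34 in WT_1 and -0.33 in WT_2. These are descriptions over genes, and the part that length plays in the share of start contexts was not tested.

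By functional class, the footprints were divided among many processes, with basement membrane and secreted matrix highest in both libraries. ER folding came next in WT_1, at 3.32%, whereas in WT_2, at 2.58%, it lay behind chromatin regulators (2.90%) and splicing proteins (2.66%). The first place of matrix rests on a few genes, as without the 10 genes with the most counts it held 1.44%, against 2.86% for chromatin regulators. The classes were lists and symbol patterns covering 2456 of the 11011 genes in 29 classes with at most 1 class per gene, and they held 45.6% of the footprints in WT_1 and 45.7% in WT_2. Exact 95% binomial intervals of the shares of the 29 classes reached at most 0.0109 percentage points to either side. The classes also differ in how far other genes share their coding sequence. The median percentage of 28-base coding windows found in no other annotated gene was 100% for matrix, 20% for histones and 3.79% for cytosolic ribosomal proteins. The part of shared sequence in the order of classes was not tested. Of the 29 classes 26 had shares within 1.2-fold of each other in WT_1 and WT_2. The 3 others were the ER chaperones, the actin-binding proteins and the solute carriers, all with more footprints in WT_1.

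**Figure D2:**
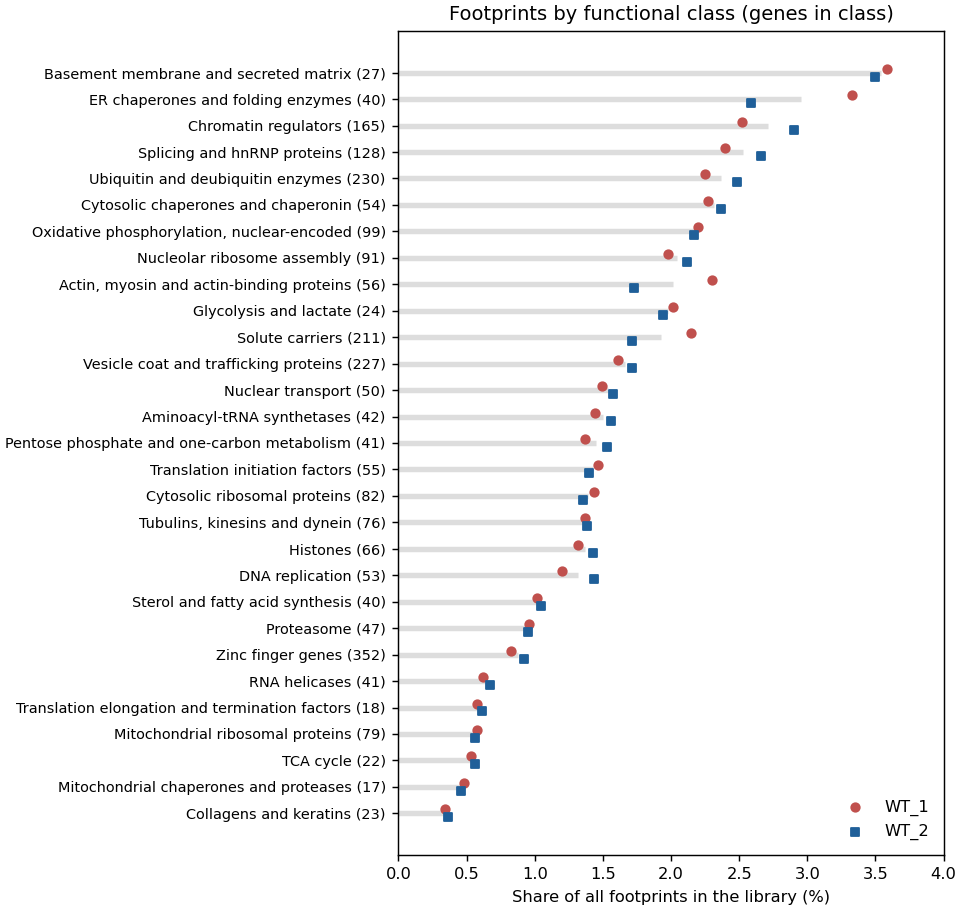
Share of all footprints of a library (horizontal axis, percent) for each of 29 functional classes, with the number of genes in the class in brackets; circles are WT_1, squares WT_2 and grey bars their mean. Basement membrane and secreted matrix is highest, at 3.58% in WT_1 and 3.50% in WT_2. ER chaperones, actin-binding proteins and solute carriers show the widest gaps. The shares are not adjusted for sequence shared with other genes.

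Basement membrane and secreted matrix proteins took 3.58% of the footprints in WT_1 and 3.50% in WT_2 with 27 genes, and Fn1 alone made up 25.4% of the class. Behind the genes named above came Sparc, a secreted matrix modulator (1666 CPM in WT_1, 2035 CPM in WT_2), Lama5 (1104 CPM in WT_1, 931 CPM in WT_2), Nid1 (1003 CPM in WT_1, 887 CPM in WT_2) and Agrn, agrin (869 CPM in WT_1, 783 CPM in WT_2). The lowest member was Npnt, nephronectin, with 5.05 CPM in WT_1 and 3.67 CPM in WT_2. The median gene of the class stood at 50.7 TPM in WT_1 and 44.1 TPM in WT_2. The network-forming collagen chains of basement membranes, Col4a1 (1424 CPM in WT_1, 1712 CPM in WT_2) and Col4a2 (747 CPM in WT_1, 935 CPM in WT_2), led the 23 collagen and keratin genes, which held 0.339% in WT_1 and 0.361% in WT_2. Col5a1, a chain of fibrillar collagen, had 94.3 CPM in WT_1 and 78.4 CPM in WT_2.

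ER chaperones and folding enzymes, which fold secreted and membrane proteins, took 3.32% of the footprints in WT_1 and 2.58% in WT_2 with 40 genes. Of the 40 genes 33 were higher in WT_1 and 7 in WT_2, and the median log2 difference, WT_1 over WT_2 on the CPM + 1 scale, was 0.29, against -0.05 over all genes. The protein disulfide isomerases Pdia3 (2584 CPM in WT_1, 1864 CPM in WT_2), P4hb (1945 CPM in WT_1, 1513 CPM in WT_2) and Pdia6 (1854 CPM in WT_1, 1616 CPM in WT_2) followed the 4 chaperones already named. Hyou1, a co-chaperone of BiP, was level at 1090 CPM in WT_1 and 1108 CPM in WT_2. Solute carriers, which move small molecules across membranes, also lay higher in WT_1, at 2.14% against 1.71% in WT_2, with 155 of 211 genes higher in WT_1 and a median log2 difference of 0.24. The amino acid transporters Slc38a4 (1827 CPM in WT_1, 1253 CPM in WT_2), Slc3a2 (1699 CPM in WT_1, 1379 CPM in WT_2), Slc38a2 (1462 CPM in WT_1, 951 CPM in WT_2) and Slc7a5 (1337 CPM in WT_1, 1120 CPM in WT_2) led this class.

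Several classes, of nuclear and of other proteins, lay the other way. Chromatin regulators held 2.52% of the footprints in WT_1 and 2.90% in WT_2, with 127 of 165 genes higher in WT_2 and a median log2 difference of -0.18. Trim28 led them, followed by the remodeller Chd4 (1252 CPM in WT_1, 1678 CPM in WT_2), Kdm5b, a histone H3 demethylase (922 CPM in WT_1, 1469 CPM in WT_2), and Jarid2, a partner of Polycomb (1049 CPM in WT_1, 1232 CPM in WT_2). The DNA replication class had 1.2% in WT_1 and 1.43% in WT_2, with 41 of 53 genes higher in WT_2, among them the helicase subunit Mcm3 (1194 CPM in WT_1, 1514 CPM in WT_2) and topoisomerase Top2a (1053 CPM in WT_1, 1414 CPM in WT_2). Splicing and hnRNP proteins held 2.40% in WT_1 and 2.66% in WT_2, and the SR-related protein Srrm2 showed 826 CPM in WT_1 and 1423 CPM in WT_2. The shift was not particular to nuclear proteins. Of the tubulins, kinesins and dynein genes 57 were higher in WT_2 and 19 in WT_1, with a median log2 difference of -0.18. Of the vesicle coat and trafficking genes 157 were higher in WT_2 and 70 in WT_1 (-0.17). Over all genes 55.3% were higher in WT_2, and with 2 libraries of 1 condition none of these shifts could be tested.

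The genes of oxidative phosphorylation were even between the libraries, and those of glycolysis were even in sum but not gene by gene. The 99 nuclear-encoded genes of oxidative phosphorylation held 2.20% in WT_1 and 2.17% in WT_2. Their median density was 333 TPM in WT_1 and 327 TPM in WT_2, the highest median of the 29 classes in WT_1. Beside Atp5b stood Atp5a1, the alpha subunit of ATP synthase (2103 CPM in WT_1, 2393 CPM in WT_2), and Cox4i1, a subunit of cytochrome c oxidase (1092 CPM in WT_1, 960 CPM in WT_2). Glycolysis and lactate genes held 2.01% in WT_1 and 1.94% in WT_2, and Slc2a3 made up 30.3% of that. The 4 transporters of this class were higher in WT_1, while 17 of its 24 genes were higher in WT_2. Its median density was 240 TPM in WT_1 and 348 TPM in WT_2, and its median log2 difference, -0.30, was the furthest from 0 of the 29 classes. Aldolase, Aldoa, had 1262 CPM in WT_1 and 1795 CPM in WT_2, hexokinase Hk2 had 859 CPM in WT_1 and 1178 CPM in WT_2, and the lactate exporter Slc16a1 had 954 CPM in WT_1 and 710 CPM in WT_2.

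The classes of protein synthesis and turnover held moderate shares of the counts. Translation initiation factors held 1.46% in WT_1 and 1.40% in WT_2, and aminoacyl-tRNA synthetases 1.44% in WT_1 and 1.56% in WT_2. Elongation and termination factors held 0.577% in WT_1 and 0.614% in WT_2. Among these Eef1a1 had 789 CPM in WT_1 and 640 CPM in WT_2. Only 10.6% of its 28-base coding windows occur in no other annotated gene. The part of shared sequence in these class shares was not tested. Nucleolar proteins of ribosome assembly held 1.98% in WT_1 and 2.11% in WT_2. The cytosolic chaperones, 54 genes, held 2.27% in WT_1 and 2.36% in WT_2, and the subunits of the chaperonin ring were close together, Cct5 at 1453 CPM in WT_1 and 1400 CPM in WT_2 and Cct8 at 1254 CPM in WT_1 and 1305 CPM in WT_2. The 47 proteasome genes held 0.957% in WT_1 and 0.952% in WT_2 with a median density of 273 TPM in WT_1 and 253 TPM in WT_2. At the other end, 352 zinc finger genes, many of them repressors of transposons, held 0.829% in WT_1 and 0.923% in WT_2, with a median of 6.72 TPM in WT_1 and 6.94 TPM in WT_2. Of that class Zfp42 (Rex1), a marker of pluripotency, made up 12.9%.

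Cytosolic ribosomal proteins held 1.43% of the footprints in WT_1 and 1.35% in WT_2 with 82 genes, and their densities were spread widely. Mean TPM ran from 1.36 for Rpl29 to 2855 for Rps3. The 10th and 90th percentiles of mean TPM were 17.8 and 1082, against 57.9 and 301 for the 79 mitochondrial ribosomal proteins. Of the 82 genes 10 lay below the median of all genes and 10 above 1000 TPM. The first 5 members held 46.9% of the class.

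This spread moved with how much of each coding sequence is shared with other genes. Ribosomal protein genes have many processed pseudogenes, intronless copies scattered over the genome, and a short footprint from a shared stretch matches several of them. For each gene the share of its coding windows of 28 bases, about the length of a footprint, that occur in no other annotated gene was computed, and is called the unique share here. It was under 50% for 74 of the 82 ribosomal protein genes (90.2%), against 7.53% of all genes, and 0% for 30 of them. The median number of other annotated genes with at least 1 window in common was 16, and the highest was 217, for Rps19. Windows from the centre of the coding sequence are shown for 3 ribosomal protein genes among the densest and then the 4 least dense, to show how the ends of the range differ. Capitals mark a window found in no other annotated gene, and lower case a window that others share.
Rps3: CCTGCTATGGTGTGCTTCGGTTCATTAT
Rpl8: AGCTGGCCCGAGCCTCCGGGAACTACGC
Rpl4: GGCCCTGCATCATCTATAATGAAGATAA
Rps13: tgagaatcctcaagtccaaaggccttgc
Rpl39: ctattcctcagtggatccggatgaaaac
Rps27: aggatgctataaaatcaccacggtcttt
Rpl29: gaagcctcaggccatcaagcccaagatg
The window of Rps13 occurs in 5 other genes, that of Rpl39 in 3, that of Rps27 in 3 and that of Rpl29 in 51, of which 47 are annotated as pseudogenes.

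Rps3 had 2982 TPM in WT_1 and 2728 TPM in WT_2, with a unique share of 77.4%. Rpl8 had 2600 TPM in WT_1 and 2930 TPM in WT_2 at 88.6%. At the low end, Rps13 had 9.94 TPM in WT_1 and 2.33 TPM in WT_2, Rpl39 had 6.2 TPM in WT_1 and 1.45 TPM in WT_2, and Rpl29 had 0.988 TPM in WT_1 and 1.74 TPM in WT_2. Median mean TPM was 74.0 for the 30 genes with a unique share of 0%, 189 for the 24 above 0 and up to 10%, 510 for the 20 above 10 and up to 50%, and 1265 for the 7 above 50 and up to 90%. Across the 82 genes Spearman's rho between TPM and the unique share was 0.62 in WT_1 and 0.64 in WT_2, against -0.07 in WT_1 and -0.07 in WT_2 across all genes. How the authors treated reads with several matches is not given in the sources used here, and its part in these levels was not tested. The low values are therefore values of the table, and cannot be read as low synthesis of those proteins.

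**Figure D3:**
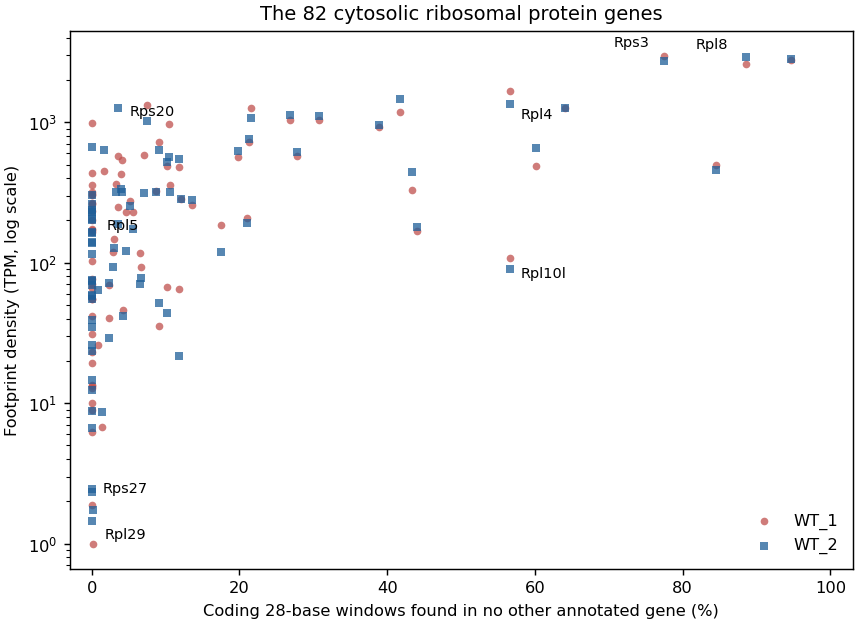
Footprint density (vertical axis, TPM, log scale) against the share of coding 28-base windows found in no other annotated gene (horizontal axis, percent) for the 82 cytosolic ribosomal protein genes; circles are WT_1 and squares WT_2. Rps3 and Rpl8, among the densest, lie at unique shares of 77.4% and 88.6%, and genes at 0% run from 1.45 TPM (Rpl39 in WT_2) to 990 TPM (Rps28 in WT_1).

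In the glycolysis and histone classes the density did not follow the unique share in order, as it was lower above 90% than from 50 to 90%. In the glycolysis and lactate class the median of mean TPM was 14.8 for 2 genes with a unique share of 0%, 61.7 for 3 genes above 0 and up to 10%, 971 for 4 above 10 and up to 50%, 1249 for 2 above 50 and up to 90%, and 333 for 13 above 90%. Gapdh, an enzyme with many pseudogenes and a unique share of 5.70%, had 50.9 TPM in WT_1 and 72.6 TPM in WT_2, and Pgk1, at 0%, had 11.1 TPM in WT_1 and 9.61 TPM in WT_2. Tpi1, at 63%, had 823 TPM in WT_1 and 961 TPM in WT_2. Pkm, pyruvate kinase, had 1138 TPM in WT_1 and 1389 TPM in WT_2 at 16.9%, while the hexokinase Hk1, at 100%, had 53.2 TPM in WT_1 and 87.8 TPM in WT_2. Histone genes had a median of 167 TPM at 0%, 188 TPM above 0 and up to 10%, 375 TPM above 10 and up to 50%, 524 TPM above 50 and up to 90%, and 350 TPM above 90%. Of the cytoplasmic actins, Actg1, at 0%, had 85.3 TPM in WT_1 and 125 TPM in WT_2, whereas Actb, at 50.8%, had 2920 TPM in WT_1 and 4013 TPM in WT_2. Dppa5a, at 18.2%, was second in mean TPM of all genes. The genes of this paragraph were picked with their values in view.

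The labelled cell type was checked against marker genes. Of 28 genes of naive and general pluripotency, all were in the table, 26 had at least 10 CPM in both libraries and 23 at least 100 CPM. Of all 11011 genes, 8385 in WT_1 and 8422 in WT_2 had at least 10 CPM. At least 100 CPM was reached by 2244 genes in WT_1 and 2305 in WT_2. These counts over all genes are the reference for the other marker lists as well. Pou5f1, the factor Oct4, had 754 CPM in WT_1 and 691 CPM in WT_2. Nanog had 584 CPM in WT_1 and 615 CPM in WT_2, Sox2 had 346 CPM in WT_1 and 432 CPM in WT_2, and the nuclear receptor Esrrb had 452 CPM in WT_1 and 499 CPM in WT_2. Zfp42 (1068 CPM in WT_1, 1195 CPM in WT_2), Dppa5a (1059 CPM in WT_1, 1125 CPM in WT_2) and L1td1, an RNA-binding protein (940 CPM in WT_1, 912 CPM in WT_2), were the highest after Trim28. The lowest was Dppa3 (Stella), with 6 counts in WT_1 and 46 in WT_2, which is 0.541 CPM in WT_1 and 1.94 CPM in WT_2. The summed level of the list was 12505 CPM in WT_1 and 13619 CPM in WT_2.

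Markers of other lineages were mostly low, apart from a set shared with the endoderm that lines the early embryo. Of 29 genes of primitive and yolk-sac endoderm 19 were in the table, 18 had at least 10 CPM in both libraries and 12 at least 100 CPM, and they summed to 20452 CPM in WT_1 and 22636 CPM in WT_2. Most of this sum came from matrix genes that are not particular to endoderm, namely Lamc1, Lama1, Lamb1, Sparc, Col4a1 and Col4a2. Apoe, a lipid carrier of the same list, had 2599 CPM in WT_1 and 1795 CPM in WT_2. The endocytic receptors Lrp2 (1478 CPM in WT_1, 1223 CPM in WT_2) and Cubn (1030 CPM in WT_1, 996 CPM in WT_2) and their partners Amn (115 CPM in WT_1, 110 CPM in WT_2) and Dab2 (93.6 CPM in WT_1, 165 CPM in WT_2) were present too, as was Pdgfra, a growth factor receptor (145 CPM in WT_1, 142 CPM in WT_2). The 3 transcription factors of endoderm fate in the table were all higher in WT_2, and their mean densities, 24.1 TPM for Gata6, 28.9 TPM for Gata4 and 26.3 TPM for Sox17, lay near the median of all genes, 27.2 TPM. Gata6 had 17.1 CPM in WT_1 and 47.4 CPM in WT_2, Gata4 had 18.9 CPM in WT_1 and 39.2 CPM in WT_2, and Sox17 had 16.8 CPM in WT_1 and 33.4 CPM in WT_2. The part that endoderm cells in the cultures have in these values was not tested.

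Of 14 trophectoderm genes 7 were in the table, of which 5 had at least 10 CPM in both libraries and 0 at least 100 CPM. Their sums were 160 CPM in WT_1 and 199 CPM in WT_2. The keratin Krt18 was highest, at 49.3 CPM in WT_1 and 50.6 CPM in WT_2. Of 12 streak and mesoderm genes only Kdr, a receptor of vascular progenitors, was in the table, with 7.31 CPM in WT_1 and 5.90 CPM in WT_2. Of 12 neuroectoderm genes 3 were in the table, Tubb3 (52.1 CPM in WT_1, 54.9 CPM in WT_2), Nes (18.5 CPM in WT_1, 17.7 CPM in WT_2) and Map2 (7.58 CPM in WT_1, 6.07 CPM in WT_2). Fibroblast genes summed to 272 CPM in WT_1 and 254 CPM in WT_2 with 5 of 16 in the table, of which the surface protein Thy1 was highest at 124 CPM in WT_1 and 116 CPM in WT_2. Of 17 genes that mark rare cells resembling the 2-cell embryo 4 were in the table, with Eif1a, a copy of a general initiation factor, at 50.5 CPM in WT_1 and 58.7 CPM in WT_2 and Zscan4d at 2 counts in WT_1 and 0 in WT_2. Of 15 formative genes, which rise as stem cells leave the naive state, 10 were in the table. They summed to 888 CPM in WT_1 and 1055 CPM in WT_2. Much of this sum was Dnmt3l (448 CPM in WT_1, 521 CPM in WT_2), which is also counted in the list of naive and general pluripotency. Otx2 had 7.4 CPM in WT_1 and 13.9 CPM in WT_2. Of 15 germline genes 13 were in the table, summing to 285 CPM in WT_1 and 315 CPM in WT_2, and Tex19.1, active in stem cells as well, was highest at 101 CPM in WT_1 and 106 CPM in WT_2.

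**Figure D4:**
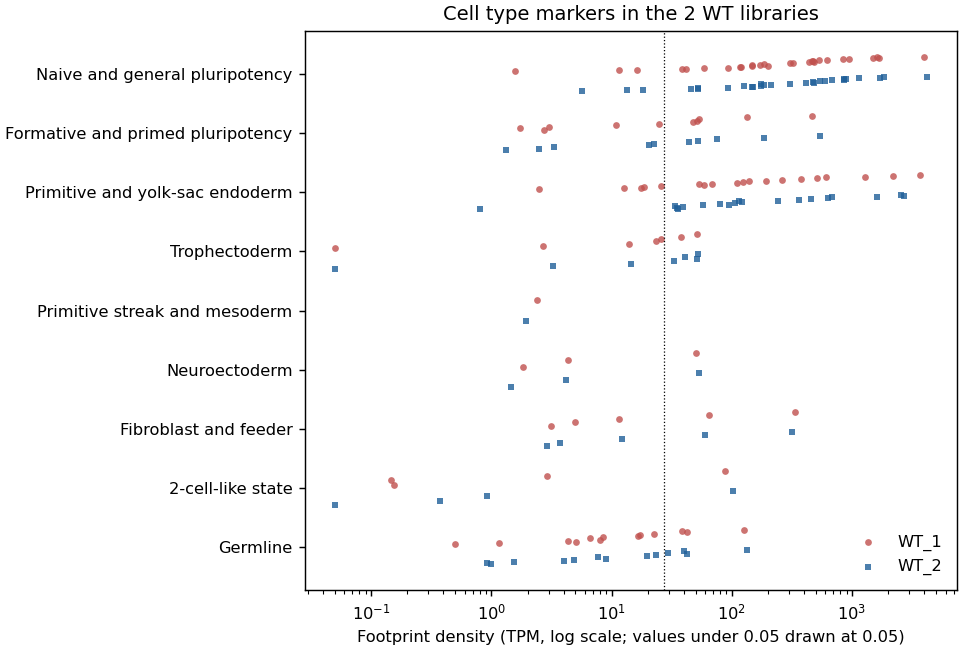
Footprint density (horizontal axis, TPM, log scale, values under 0.05 drawn at 0.05) of each marker gene in the table for 9 cell type lists; circles are WT_1, squares WT_2 and the dotted line is the median mean TPM of all genes, 27.2. Pluripotency markers mostly lie right of the line, with 23 of 28 genes at 100 CPM or more in both libraries. Of all 11011 genes, 2244 in WT_1 and 2305 in WT_2 reached that level. Primitive and yolk-sac endoderm genes lie mostly right of the line as well, formative and trophectoderm genes on both sides of it, and the other lists mostly left of it.

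The libraries agreed closely across genes and differed by more than counting error. Across the 11011 genes Pearson's r of log2(CPM + 1) was 0.982 and Spearman's rho of CPM 0.983, both descriptions over genes. A chi-square comparison of the counts gave 41.1 per degree of freedom with 11001 degrees of freedom, so the 2 libraries differed by more than sampling noise and do not read as copies of 1 library. This does not show that they came from separate cultures. Among the 6690 genes with a mean of at least 20 CPM, 6285 (93.9%) were within 1.5-fold of each other and the SD of the log2 difference was 0.33. The biological coefficient of variation estimated by edgeR was 0.179 over 10819 genes. It was 0.174 for the 9109 genes with a unique share of at least 90%, 0.302 for 246 genes with less than 10%, and 0.343 for 79 ribosomal protein genes.

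The excess over counting error was largest, in proportion, for the most abundant genes. The values of this paragraph use the ratio of CPM with no pseudocount, over genes with counts in both libraries. Between 1 and 10 CPM the robust SD of the log2 ratio was 0.59, where counting alone gives 0.23, and between 10 and 100 CPM it was 0.33 against 0.09. Between 100 and 1000 CPM it was 0.27 against 0.04, and for the 125 genes from 1000 CPM upwards it was 0.35 against 0.01. Below 1 CPM, 48.3% of the 151 genes were over 2-fold apart on this scale.

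**Figure D5:**
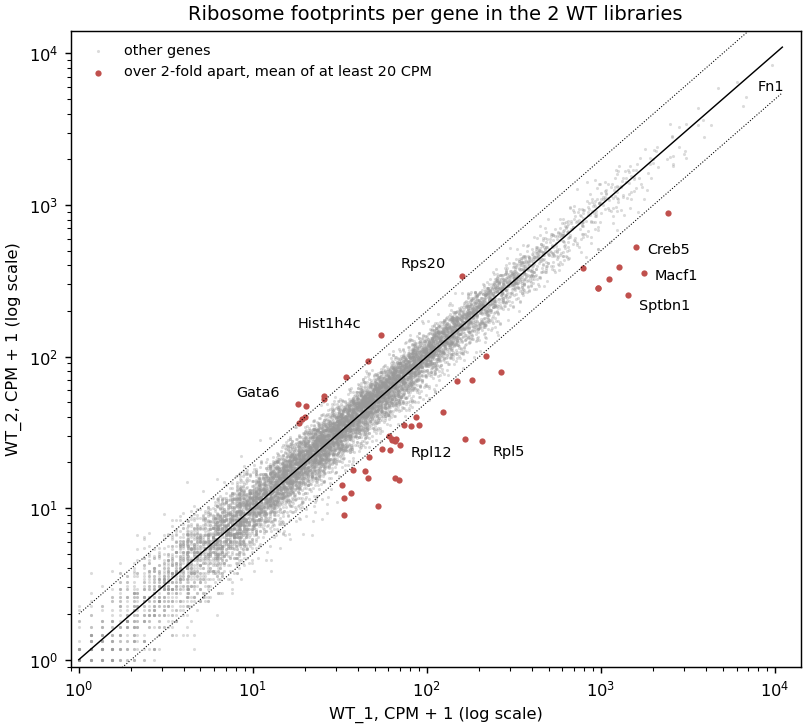
Footprints per gene in WT_2 (vertical axis, CPM + 1, log scale) against WT_1 (horizontal axis, CPM + 1, log scale); the solid line marks equal values and the dotted lines 2-fold differences, and red points are the 50 genes over 2-fold apart with a mean of at least 20 CPM. Of these, 39 lie below the diagonal, higher in WT_1, and 11 above it.

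On the log2(CPM + 1) scale, over 2-fold apart were 191 of all 11011 genes, which is 1.73%, with 133 higher in WT_1 (1.21%) and 58 higher in WT_2 (0.527%). At a mean of at least 20 CPM it was 50 of 6690 genes, or 0.747%, with 39 higher in WT_1 (0.583%) and 11 higher in WT_2 (0.164%). With TMM scaling or DESeq2 size factors, which move the median log2 difference of all genes close to 0, it was 51 genes, 45 higher in WT_1 and 6 higher in WT_2. Of these 50 genes 13 (26%) had a unique share under 10%, against 1.90% of the 6690, and 9 (18%) had a gene for a snoRNA, a small RNA of the nucleolus, within their bounds, against 2.41%. Both shares are descriptions, and the part of shared sequence or of snoRNA fragments in these differences was not tested. Of the 67 ribosomal protein genes at this level 8 were over 2-fold apart. Rpl5, which also binds the 5S rRNA, had 205 CPM in WT_1 and 26.5 CPM in WT_2, a log2 difference of 2.91, and Rpl12 had 164 CPM in WT_1 and 27.7 CPM in WT_2 (2.52). Rps20, in the other direction, had 158 CPM in WT_1 and 341 CPM in WT_2 (-1.11).

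Another set that lay apart was a group of large actin cross-linkers, all higher in WT_1. Sptbn1, a beta-spectrin under the cell membrane, had 1429 CPM in WT_1 and 252 CPM in WT_2, a log2 difference of 2.50. Macf1, a plakin that ties actin to microtubules, had 1768 CPM in WT_1 and 356 CPM in WT_2 (2.31), and was 39th by counts in WT_1 and 506th in WT_2. Plec, plectin, had 1114 CPM in WT_1 and 323 CPM in WT_2 (1.78), and Iqgap1, a scaffold of the cell cortex, had 964 CPM in WT_1 and 284 CPM in WT_2 (1.76). These proteins share calponin-homology domains, which bind actin in several of them, and their unique shares were 99.7% or higher.

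To place these genes, 2 lists were drawn up after their values had been seen. The table held 19 genes of the spectrin, plakin, filamin, actinin, IQGAP and dystrophin families. Of these 15 were higher in WT_1, with a median log2 difference of 1.11. At a mean of at least 20 CPM 9 of 17 were over 2-fold higher in WT_1, against 0.583% of all 6690 genes at this level. Sptbn1, Macf1, Plec and Iqgap1, the genes that prompted the list, are among the 9, so part of this contrast was fixed in advance. The 19 genes held 1.42% of the footprints in WT_1 and 0.576% in WT_2. The 4 higher in WT_2 were Flnc (82.4 CPM in WT_1, 107 CPM in WT_2), Dmd, dystrophin (65.1 CPM in WT_1, 69.9 CPM in WT_2), Sptbn4 (20 CPM in WT_1, 22.9 CPM in WT_2) and Actn2 (3.43 CPM in WT_1, 4.97 CPM in WT_2). Of 39 other genes with a calponin-homology domain 18 were higher in WT_1 and 21 in WT_2, with a median log2 difference of -0.03. Of these 0 of 24 were over 2-fold apart, against 0.747% of the 6690 genes, so this count is near the share over all genes. Myh9, a non-muscle myosin of the same actin class, lay the other way at 445 CPM in WT_1 and 730 CPM in WT_2. Without replicates of these cultures beyond the 2 libraries, a difference between them is a value of the 2 libraries and no more.

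The remaining genes of this kind were of mixed function. Higher in WT_1 were Cd37, a tetraspanin (51.5 CPM in WT_1, 9.27 CPM in WT_2), and Creb5, a transcription factor (1588 CPM in WT_1, 529 CPM in WT_2). So was Eif4a1, the helicase of translation initiation (959 CPM in WT_1, 283 CPM in WT_2). Eif4a1 had a unique share of 0.838% and 3 snoRNA genes within its bounds. H2afz, a histone variant with a unique share of 0%, was also higher in WT_1 (263 CPM in WT_1, 78.1 CPM in WT_2). Higher in WT_2 were Gata6, given above (log2 difference -1.41), Hist1h4c, a histone H4 gene (53.3 CPM in WT_1, 138 CPM in WT_2), Ost4, a subunit of the oligosaccharyltransferase (19.2 CPM in WT_1, 46.1 CPM in WT_2), Ccdc86, a nucleolar protein (33.2 CPM in WT_1, 72.3 CPM in WT_2), and Hdac1, a histone deacetylase with a unique share of 10.2% (24.5 CPM in WT_1, 53.8 CPM in WT_2).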

How the data were processed

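The authors deposited whole-number counts of reads per gene, 1 column per library, with no normalization. Trimmomatic, Bowtie2 and the builds mm10 (GRCm38) and dm6 (BDGP6) are named in the submitters' processing notes, per those notes without versions or roles. Per the labels' protocols, lysates were digested with RNase I, monosomes were taken from spin columns, rRNA was removed, libraries were made with a kit for small RNA, and Drosophila spike-ins were added. The counting tool, annotation, strand setting, read-length filter, treatment of reads with several matches and choice of genes are not given in the sources used here, so close paralogs, and genes that overlap on either strand, may share reads that cannot be told apart.

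The 2 WT columns were matched to the labels by library number. All 11011 gene identifiers were found in GENCODE M21, and 16 symbols turned into dates were replaced. CPM used the total count. TPM used the longest coding sequence of each gene (2 genes had none). Windows of 28 bases were compared, sense strand, among all annotated transcripts. Log2 differences used a pseudocount of 1 CPM. R 4.3.3 with edgeR 4.0.16 gave the coefficient of variation, tested on simulated data, and TMM factors, and DESeq2 1.42.0 gave size factors. Other values came from Python 3.11.15 with pandas 2.3.3 and scipy 1.17.1.

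Named were the 20 genes with most counts, the 15 densest with at least 100 counts in each library, the 4 highest and the lowest of each class, up to 6 highest and the lowest of each marker list, and the 8 furthest apart per direction. A few genes that these rules select are not reported here. Genes beyond these rules were named after their values were seen. The members, classes and lists were chosen with earlier results of these data known.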

Additional observations from a re-analysis of the deposited data

How the results depend on the processing

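Correlations between the libraries and the count of 50 genes over 2-fold apart stayed within tolerance under TMM scaling, DESeq2 size factors and a pseudocount of 0.1 CPM. The same held for filters of 10 or 100 counts in each library. Spearman's rho cannot change when a library is rescaled, and Pearson's r then changes only through the pseudocount, so scaling is no test of them. Genes at a mean of at least 20 CPM mostly have more counts than the filters ask, so the filters hardly test the 50. The share of all genes over 2-fold apart, 1.73%, was 0.952% at a minimum of 100 counts and 3.91% with a pseudocount of 0.1 CPM, since both act on low counts. Of the 50 genes 11 were higher in WT_2, and 6 of 51 with TMM scaling or with DESeq2 size factors. Leaving out either library leaves the other's own value, given in the report, and is no test of stability with 2 libraries. With protein-coding genes alone no class share moved beyond the spread between the libraries. Only 2 of the 11011 genes are not protein-coding, so the shares could hardly move and this is no test. Without the 10 genes with the most counts the total shrinks and shares moved: matrix to 1.44%, ER chaperones 2.18%, cytosolic chaperones 1.78%, oxidative phosphorylation 1.91%, nucleolar 2.15%, glycolysis 1.05%, vesicle 1.75%, nuclear transport 1.62%, initiation 1.51%, ribosomal proteins 1.47%, tubulins 1.45%, sterol 1.08%, proteasome 1.01%, elongation 0.627%, mitochondrial ribosome 0.599%, TCA cycle 0.573%, mitochondrial chaperones 0.494%, collagens and keratins 0.368%. The mean of both libraries' median TPM, 26.9, became 27.5 without those 10 genes and 27.9 at a minimum of 10 counts. With exon length in place of coding length it was 24.5, the median of ribosomal proteins fell to 154 TPM, against 216 TPM, and Slc2a3 to 3131 TPM, against 5326 TPM. No paired analysis was possible because only 1 group was described and no comparison between groups was made. Low counts limit single genes under 10 CPM, and the part of shared sequence in the values was not tested.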

Other observations

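By chromosome the libraries differed in a few places. The 616 genes of chromosome 1 held 8.44% of the footprints in WT_1 and 9.28% in WT_2, with a median log2 difference of -0.21, and 456 of them (74.0%) were higher in WT_2, against 55.3% of all genes. The 454 genes of chromosome 15 held 4.77% in WT_1 and 4.25% in WT_2, with a median log2 difference of 0.10 and 288 genes higher in WT_1. All 5 genes of chromosome Y in the table were higher in WT_1. Of these the helicase Ddx3y had 32.2 CPM in WT_1 and 10.6 CPM in WT_2, the histone demethylase relative Uty had 23.9 CPM in WT_1 and 7.50 CPM in WT_2, and the initiation factor Eif2s3y had 35.8 CPM in WT_1 and 24.0 CPM in WT_2. These values are given with no test, and the chromosomes were chosen after their values were seen.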
